A study of Homo sapiens with 16 samples.

Results

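Ribosomal protein genes encode the protein parts of the large subunit (symbols starting RPL) and the small subunit (symbols starting RPS) of the cytoplasmic ribosome. Members were the protein-coding RefSeq symbols that start with RPL or RPS followed by a digit, plus RPLP0, RPLP1, RPLP2 and RPSA. Kinases named RPS6K, RPS4Y genes, readthrough names with a hyphen and a fixed set of paralogues were left out. This gave 79 of 19974 protein-coding genes. Of these, RPS18 lies in a stretch of over 1 Mb without a peak in any list and was left out of the peak counts. It stays in the counts of start-site and promoter sequences. The rule also takes RPS19BP1, which encodes a binding partner of RPS19, and RPL36AL, a paralogue of RPL36A. Without these genes the list holds 77 ribosomal proteins, 46 of the large and 31 of the small subunit.

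The cells were Toledo, an established human diffuse large B-cell lymphoma line grown in suspension. They had received 5 uM TP-064, a small-molecule inhibitor of the arginine methyltransferase CARM1, or the solvent DMSO, in each case for 6 days. Chromatin immunoprecipitation with sequencing (ChIP-seq) mapped 3 histone marks, H3K27ac, H3K4me1 and H3K4me3, in 2 libraries per mark and treatment. Each of the 12 ChIP libraries has its own list of peak positions without heights or scores, and the 4 input libraries were not used here. By its title, the study concerns the effect of blocking CARM1 on histone acetylation in lymphomas that carry mutations of CREBBP or EP300, the acetyltransferases responsible for H3K27ac. All results come from 1 line, and the labels do not state whether the replicate libraries were grown as separate cultures.

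Every growing cell makes ribosomal proteins in large and matched amounts, so their promoters are among the most active in the genome. Such promoters usually carry H3K4me3, a mark of transcription start sites, and H3K27ac, a mark of active promoters and enhancers. H3K4me1 marks mainly enhancers and tends to flank the H3K4me3 of active promoters. Most ribosomal protein mRNAs in vertebrates begin with a C followed by a run of pyrimidines, the 5′ terminal oligopyrimidine (TOP) motif. Through it the mTOR pathway and the RNA-binding protein LARP1 control their translation.

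The start of transcription shows this motif in the sequence. RefSeq (GRCh38.p14) lists a single start for 53 of the 79 members, and 40 of these 53 (75.5%) begin with C and at least 4 more pyrimidines, against 541 of 11776 protein-coding genes with 1 listed start (4.59%). The first base was C in 44 of the 53 and in 11.0% of all 11776. The median length of the pyrimidine run was 7 bases in ribosomal protein genes, where a run that starts with another base than a pyrimidine counts as 0, and 0 over all genes. The longest run, 19 bases, belonged to RPL39 and the next, 16 bases, to RPL7A. Shown first are 4 genes whose H3K27ac peaks appeared with DMSO and not with the inhibitor, and then 4 genes with H3K27ac in every library. Each sequence runs 5′ to 3′ on the gene's own strand, from 60 bases before the start to 20 bases into the transcript, with the pyrimidine run at the start in capitals.
RPL7A: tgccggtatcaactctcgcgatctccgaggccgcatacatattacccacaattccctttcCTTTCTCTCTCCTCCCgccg
RPS14: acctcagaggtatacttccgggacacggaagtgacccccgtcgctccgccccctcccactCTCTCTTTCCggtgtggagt
RPS25: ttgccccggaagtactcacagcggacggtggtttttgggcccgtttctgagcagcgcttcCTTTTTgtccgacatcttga
RPL21: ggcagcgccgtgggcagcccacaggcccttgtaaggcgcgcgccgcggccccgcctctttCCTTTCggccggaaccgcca
RPLP2: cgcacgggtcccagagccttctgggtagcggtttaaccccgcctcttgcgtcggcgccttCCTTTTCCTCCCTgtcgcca
RPL27A: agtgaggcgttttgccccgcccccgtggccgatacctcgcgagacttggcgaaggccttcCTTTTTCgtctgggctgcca
RPS26: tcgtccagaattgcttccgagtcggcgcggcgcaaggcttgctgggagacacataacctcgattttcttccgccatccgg
RPS29: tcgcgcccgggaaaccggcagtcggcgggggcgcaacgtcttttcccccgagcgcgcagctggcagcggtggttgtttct

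These windows lie at chr9:133348158-133348237 (RPL7A, plus strand), chr5:150449720-150449799 (RPS14, minus strand), chr11:119018324-119018403 (RPS25, minus strand) and chr13:27251498-27251577 (RPL21, plus strand). Those of the genes with H3K27ac throughout lie at chr11:809907-809986 (RPLP2, plus strand), chr11:8682732-8682811 (RPL27A, plus strand), chr12:56041858-56041937 (RPS26, plus strand) and chr14:49598691-49598770 (RPS29, minus strand). RPS26 and RPS29 have no capitals because their listed starts carry no TOP run. In promoters of 300 bases (250 before and 50 from the start), searched on both strands, CCGGAAG, a site for the ETS factor GABP, was found in 16 of the 53 ribosomal protein genes (30.2%) and in 15.0% of all 11776. AAGATGG, a site for YY1, was in 8 of 53 (15.1%) against 6.69%. GGGCGG, a site for SP1, was in 32 (60.4%) against 58.7%, the TATA box TATAAA in 5 (9.43%) against 10.5%, and the E-box CACGTG in 2 (3.77%) against 8.85%. None of these motifs contains another, although CCGGAAG and AAGATGG can share the letters AAG. A match describes the letters and does not show that a factor binds.

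The labelled cell type was checked by H3K4me3 at marker genes. Of 6 B-cell markers, 5 had a peak in all 4 lists and CD22 in the DMSO lists alone, while 4 T-cell, 3 myeloid and 3 epithelial markers had no peak in any list. The H3K27ac lists held 4771 and 4595 peaks with the inhibitor, against 7885 and 4016 with DMSO. The H3K4me1 lists held 4094 and 4242 peaks with the inhibitor, against 25058 and 9673 with DMSO. The H3K4me3 lists held 10317 and 10048 with the inhibitor, against 12476 and 11481 with DMSO. The first DMSO library therefore stands apart for H3K27ac and H3K4me1, and values that rest on it are given with and without it. The read depth is unknown, so a missing peak may be a site under the caller's threshold. Treatment and sequencing lane cannot be told apart, since the inhibitor libraries ran on lane 4 and the DMSO libraries on lane 3.

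A gene was counted as marked when a peak touched, by at least 1 bp, the 2 kb on either side of one of its ends. H3K4me3 was near-universal at ribosomal protein genes under both treatments. It marked 76 and 76 of 78 genes with the inhibitor (97.4% each), against 77 and 76 with DMSO (98.7% and 97.4%). Over all 18621 protein-coding genes outside the empty stretches the shares were 54.7% and 52.7% with the inhibitor, against 59.9% and 58.1% with DMSO. H3K4me3 also marked 96.6% of 29 translation initiation factors and 97.3% of 75 mitochondrial ribosomal proteins in every library. H3K27ac marked 8 and 10 of 78 ribosomal protein genes with the inhibitor (10.3% and 12.8%), against 55 and 18 with DMSO (70.5% and 23.1%). The shares over all genes were 11.7% and 10.1% with the inhibitor, against 26.0% and 13.2% with DMSO. Ribosomal protein genes stood below the share of all genes in the first inhibitor library, somewhat above it in the second, and farther above it in both DMSO libraries. With DMSO the related lists described below also stood above all genes. Translation initiation factors (29 genes) had shares of 37.9% and 34.5% with the inhibitor, against 72.4% and 44.8% with DMSO. Mitochondrial ribosomal proteins (75 genes) had 13.3% and 13.3%, against 44.0% and 21.3%. Further TOP and elongation genes (22) had 22.7% and 27.3%, against 59.1% and 27.3%. Ribosome assembly factors and regulators (29) had 34.5% and 37.9%, against 55.2% and 27.6%. H3K4me1 marked 2 and 3 ribosomal protein genes with the inhibitor (2.56% and 3.85%), against 53 and 14 with DMSO (67.9% and 17.9%). Over all genes the H3K4me1 shares were 5.84% and 5.85% with the inhibitor, against 40.5% and 14.4% with DMSO.

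**Figure D1:**
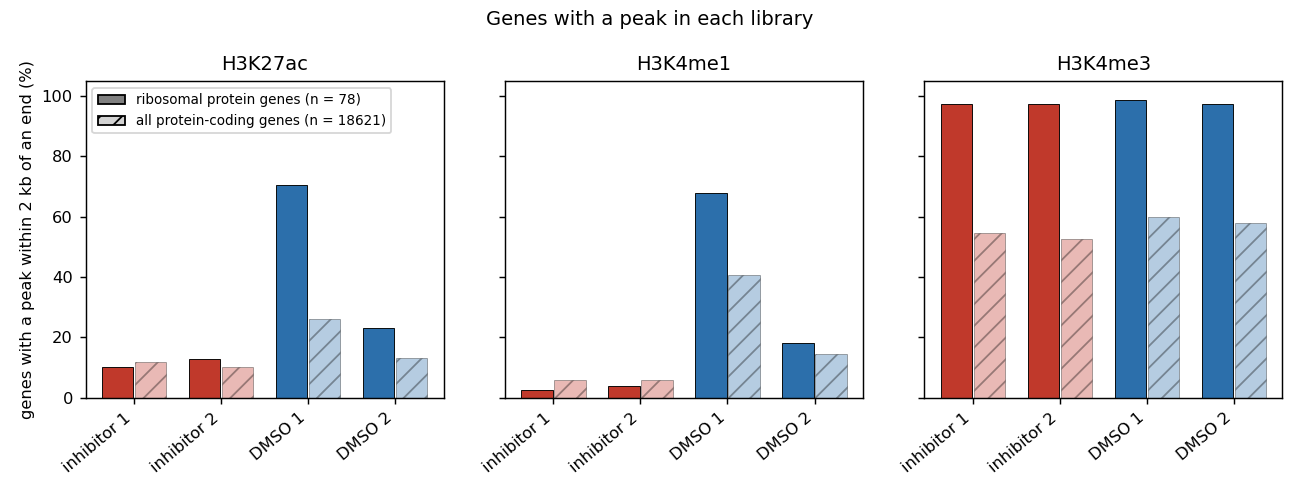
Percent of genes with a peak within 2 kb of a gene end (vertical axis) in each library (horizontal axis), for ribosomal protein genes (solid bars, n = 78) and all protein-coding genes (hatched bars, n = 18621). Solid H3K4me3 bars reach 97.4% or more in all 4 libraries, while solid H3K27ac bars stand at 10.3% and 12.8% with the inhibitor and at 70.5% and 23.1% with DMSO.

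Cutting the lists of a mark to equal length, by keeping the widest peaks, brought the libraries closer together. With 4016 H3K27ac peaks per list, 6 and 10 ribosomal protein genes were marked with the inhibitor, against 17 and 18 with DMSO. Over all genes the shares at this length were 9.46% and 8.54% with the inhibitor, against 11.6% and 13.2% with DMSO, in the same order. With 4094 H3K4me1 peaks per list the counts were 2 and 3 with the inhibitor, against 10 and 3 with DMSO, and the shares over all genes 5.84% and 5.63% with the inhibitor, against 8.46% and 6.67% with DMSO. With 10048 H3K4me3 peaks per list, 76 genes were marked in every library. The order of the treatments stayed for H3K27ac at equal length, whereas for H3K4me1 the second DMSO library matched the second inhibitor library. The narrowest H3K27ac peak kept was 1152 and 1034 bp with the inhibitor, against 1745 and 586 bp with DMSO. For H3K4me1 it was 771 and 879 bp with the inhibitor, against 3406 and 2021 bp with DMSO. Narrow peaks were thus dropped mainly from the longer lists, so equal length is not a correction for depth.

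A gene is called lost for a mark when both DMSO libraries and neither inhibitor library had a peak at its ends, and gained in the opposite case. H3K27ac was lost at 9 of the 18 ribosomal protein genes that had it in both DMSO libraries (50.0%), against 28.0% of the 2329 such protein-coding genes. It was gained at 0 of the 23 genes without a DMSO peak, against 0.454% of all such genes. The loss fell on both subunits, with 5 of 10 genes of the large subunit and 4 of 8 of the small subunit. A further 7 genes had H3K27ac in all 4 libraries, 35 had it in the first DMSO library alone, 23 in no list, and 4 in other combinations. Over all 18621 genes, 1130 had it in all 4 libraries, 1832 in the first DMSO library alone and 13402 in no list. These states are presence and absence in 2 libraries per treatment and carry no test. Leaving out the first DMSO library could not change the 9 genes, since it marked all 18 genes marked in the second. The count was then 9 of 18, against 31.0% of all genes. The count was 44 of 55 without the second DMSO library (80.0%, against 51.3%). It was 1 of 9, RPS25, in lists of equal length (11.1%, against 22.1%), and was 5 of 7 (71.4%, against 28.5%) when peaks that also touch another gene's ends were not counted. At equal length RPS25 passed the cut of the first DMSO list, 1745 bp, with a peak of 1747 bp.

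In the small subunit, RPS14 lost H3K27ac. One lost copy of RPS14 underlies the anaemia of a myelodysplastic syndrome. It had no peak in the inhibitor libraries and peaks of 1644 and 1009 bp with DMSO, at chr5:150448879-150450522 and chr5:150449237-150450245, both over its start. RPS15, a small-subunit protein mutated in some chronic lymphocytic leukaemias, had none with the inhibitor and 1092 and 920 bp with DMSO. RPS25, known for its part in initiation at viral internal entry sites, had none with the inhibitor and the widest DMSO pair of the lost small-subunit genes, 1747 and 1353 bp. RPS27A, made as a fusion with ubiquitin, had none with the inhibitor and 1462 and 758 bp with DMSO.

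In the large subunit, RPL22 lost H3K27ac. RPL22 is deleted or mutated in some leukaemias and other tumours. It had no peak with the inhibitor, against 1370 and 1160 bp with DMSO. RPL7A, whose start carries the run of 16 pyrimidines shown above, had none with the inhibitor, against 1471 and 1290 bp with DMSO. RPL17, which lines the exit tunnel of the ribosome, had none with the inhibitor, against 1589 and 1282 bp as the widest peaks with DMSO. Its peak of 1589 bp held no listed start, and the peak over the start in the first DMSO library was 1559 bp. RPL21 had none with the inhibitor, against 1354 and 1193 bp with DMSO. RPL32 had none with the inhibitor, against 1669 and 972 bp with DMSO. At all 9 genes the peak was narrower in the second DMSO library than in the first. Every DMSO peak held a listed transcription start at 8 of the 9 genes, and the exception was the RPL17 peak of 1589 bp in the first DMSO library.

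The 7 genes that kept H3K27ac in all 4 libraries included RPLP2, an acidic protein of the ribosomal stalk that recruits elongation factors. Its widest peaks were 1738 and 2053 bp with the inhibitor, against 2368 and 1882 bp with DMSO, so the treatments overlapped. RPL10, a late-joining large-subunit protein mutated in some T-cell leukaemias, had 1887 and 1219 bp with the inhibitor, against 2083 and 1770 bp with DMSO, again with overlap. RPS29, a small-subunit protein, had 1136 and 1085 bp with the inhibitor, against 1815 and 1626 bp with DMSO, without overlap. RPS26, which lies near the mRNA exit of the small subunit and is mutated in some families with Diamond-Blackfan anaemia, had 1148 and 1059 bp with the inhibitor, against 1403 and 1209 bp with DMSO, also without overlap. RPL27A had 1734 and 1843 bp with the inhibitor, against 2307 and 1945 bp with DMSO. RPL7 had 1549 and 1468 bp with the inhibitor, against 2212 and 1685 bp with DMSO. RPL19 had 1574 and 1597 bp with the inhibitor, against 1788 and 1538 bp with DMSO. The inhibitor peaks were narrower without overlap at 4 of the 7 genes, against 34.3% of 1130 protein-coding genes with peaks in all 4 libraries, and wider without overlap at 0 of 7, against 4.87%.

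Widths were also compared with limma on the log2 scale across all genes marked in all 4 libraries, after each library was centred on its median. This centring removes a shift between treatments of -0.20 for H3K27ac, -0.97 for H3K4me1 and -0.29 for H3K4me3. None of the 7 kept H3K27ac genes was called (0 narrower and 0 wider at an adjusted p under 0.05, 0 at an unadjusted p under 0.05), beside 1 narrower gene among 1130 (0.0885%). All 7 lay below 0 without centring and 5 of 7 with it. RPS29 had the largest difference, -0.43 ± 0.23 (SE) on the centred log2 scale, inhibitor over DMSO, with a limma adjusted p of 0.561.

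In the first DMSO library the median width of the widest H3K27ac peak was 2083 bp at those 7 genes, 1471 bp at the 9 lost genes and 1368 bp at the 35 genes marked in that library alone. The ranges of these sets overlapped, at values between 1403 and 2368 bp, between 1092 and 1747 bp, and between 732 and 2439 bp in the same order. A gene's widest peak was also ranked among all peaks of its list. The median H3K27ac width percentile of ribosomal protein genes was 43.95 and 25.28 with the inhibitor, against 41.24 and 36.04 with DMSO. For H3K4me1 it was 19.94 and 45.8 with the inhibitor (2 and 3 genes), against 40.17 and 29.92 with DMSO. The part of peak width in these states was not tested. A TOP start was listed for 5 of 7 lost genes with a single start, 2 of 4 kept genes, 18 of 24 genes marked in other combinations or in the first DMSO library alone, and 14 of 17 genes without H3K27ac in any list.

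**Figure D2:**
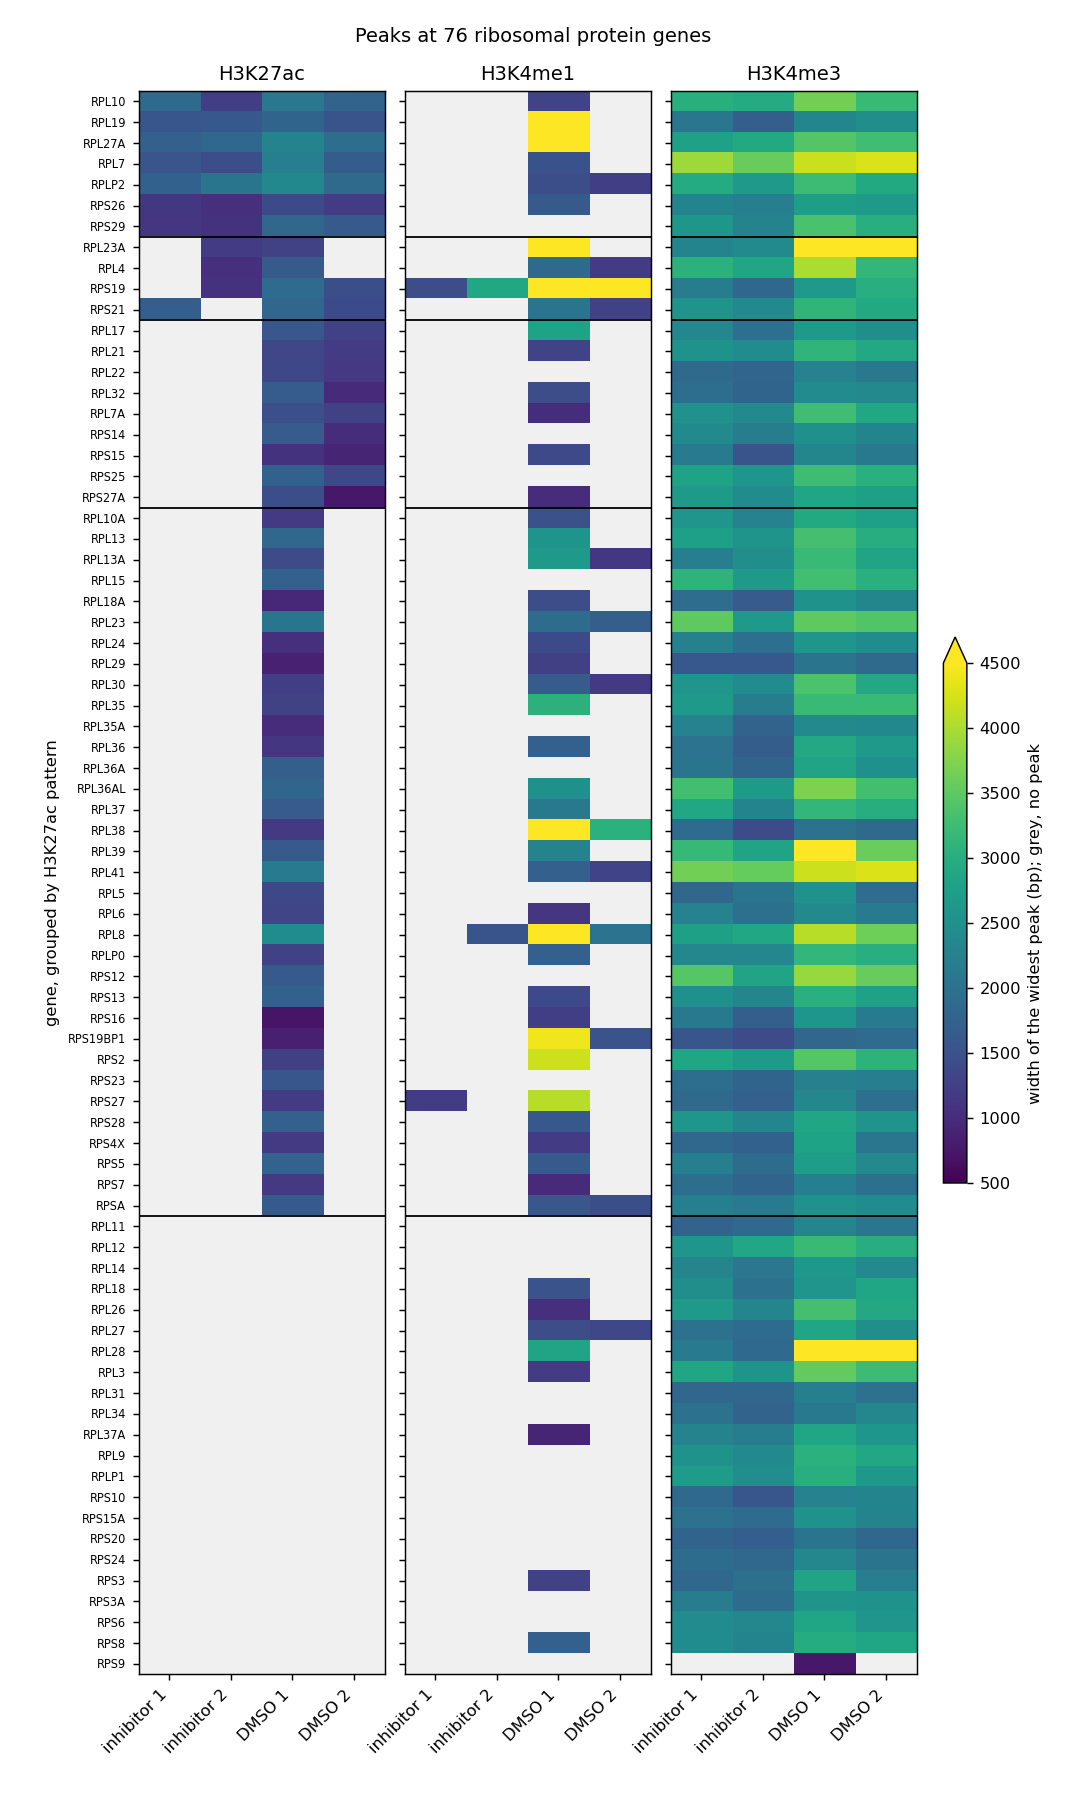
Width in bp (colour scale) of the widest peak at each of 76 ribosomal protein genes (rows, grouped by H3K27ac pattern) in each library (columns), with grey for no peak. The top block holds the 7 genes with H3K27ac in all 4 libraries, the third block the 9 lost genes and the fourth 34 genes marked in the first DMSO library alone, while H3K4me3 fills all rows drawn but RPS9.

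In other combinations, RPL4 and RPL23A had H3K27ac in the second inhibitor and the first DMSO library. RPS19, the gene most often mutated in Diamond-Blackfan anaemia, had no peak and 1075 bp in the inhibitor libraries, against 1891 and 1460 bp with DMSO. RPS21 had 1713 bp and no peak with the inhibitor, against 1825 and 1393 bp with DMSO. RPL5, which with RPL11 restrains the p53 antagonist MDM2, had 1368 bp in the first DMSO library alone, and RPL11 had no H3K27ac peak in any list. The same first-DMSO pattern held for RPLP0 (1269 bp), the central stalk protein, RPSA (1629 bp), known also as the laminin receptor, RPL13A (1408 bp) and the X-linked RPS4X (1177 bp). RPS6, the small-subunit protein phosphorylated by S6 kinases, and RPL3, a protein near the peptidyl transferase centre, had no H3K27ac in any list. All of these genes had H3K4me3 in every library.

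Peaks of H3K27ac at these genes sat over the start and inside the H3K4me3 domain. At the start sites of the 52 analysed genes with a single listed start, H3K27ac peaks covered 9.62% and 9.62% with the inhibitor, against 65.4% and 23.1% with DMSO. Over 10995 genes the shares were 8.77% and 7.19% with the inhibitor, against 22.4% and 10.4% with DMSO. In the first DMSO library the peaks over 34 starts reached a median of 591.5 bp upstream and 864 bp downstream. Of the H3K27ac peaks at ribosomal protein genes, 8 of 8 and 9 of 10 lay wholly inside an H3K4me3 peak with the inhibitor, against 55 of 59 and 17 of 18 with DMSO. Over all genes, 1190 of 1865 and 914 of 1608 peaks lay wholly inside with the inhibitor, against 3118 of 4063 and 1636 of 2060 with DMSO. At least partial overlap was seen for 100% and 100% of the peaks at ribosomal protein genes with the inhibitor, against 98.3% and 94.4% with DMSO. Over all genes it was 86.2% and 83.8% with the inhibitor, against 92.7% and 92.3% with DMSO.

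**Figure D3:**
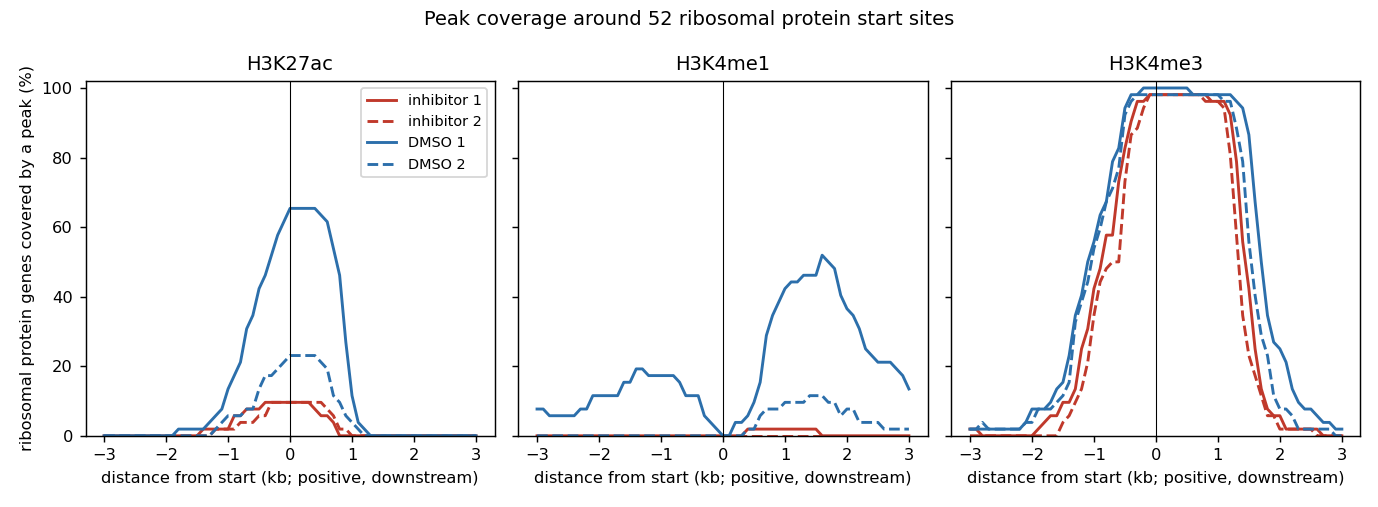
Percent of 52 ribosomal protein genes with a single listed start that are covered by a peak (vertical axis) at each distance from the start in kb (horizontal axis, positive downstream), for each library. H3K27ac and H3K4me3 are highest at and just after the start, where H3K27ac covers 9.62% of genes in both inhibitor libraries and 65.4% and 23.1% in the DMSO libraries, while H3K4me1 is at 0 over the start and, in the DMSO libraries, highest downstream.

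H3K4me1 lay beside the starts rather than over them. None of the 52 starts was covered by an H3K4me1 peak in any of the 4 libraries, against 0.773% and 0.700% of all 10995 genes with the inhibitor and 11.5% and 2.92% with DMSO. At 1.5 kb downstream of the start, 1.92% and 0% of the ribosomal protein genes were covered with the inhibitor, against 46.2% and 11.5% with DMSO. At that distance the shares over all genes were 1.38% and 1.04% with the inhibitor, against 18.5% and 4.29% with DMSO. Of the H3K4me1 peaks at ribosomal protein gene ends, 1 of 2 and 1 of 4 met an H3K4me3 peak with the inhibitor, against 68 of 73 and 11 of 15 with DMSO. Over all genes these shares were also lower with the inhibitor, at 33.8% and 29.3%, against 74.5% and 55.7% with DMSO.

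H3K4me1 was lost at 11 of the 14 ribosomal protein genes marked in both DMSO libraries (78.6%), against 55.4% of 2625 protein-coding genes, and was gained at 0 of 25, against 0.0272%. The lost genes were RPSA, RPL30, RPLP2, RPL41, RPL4, RPL23, RPL27, RPL38, RPL13A, RPS21 and RPS19BP1. Without RPS19BP1 and RPL36AL the count was 10 of 13 (76.9%). Leaving out the first DMSO library could not change the 11 genes, since it marked all 14 genes marked in the second. The count was 49 of 53 without the second DMSO library (92.5%, against 80.7% of all genes). In lists of equal length it was 1 of 3 (33.3%, against 25.7%), for windows around the start alone 7 of 7 (against 62.2%), and with peaks at 1 gene only 6 of 8 (75.0%, against 59.6%).

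RPL38, a large-subunit protein that in mice is needed for translation of a set of Hox mRNAs, had the widest lost H3K4me1 peaks, with none in the inhibitor libraries, against 5890 and 3051 bp with DMSO. RPS19BP1 had none with the inhibitor, against 4412 and 1519 bp with DMSO. RPL13A had none with the inhibitor, against 2650 and 1141 bp with DMSO, and RPS21 none with the inhibitor, against 2037 and 1275 bp with DMSO. RPL23, a large-subunit protein, had none with the inhibitor, against 1917 and 1708 bp with DMSO. In each of these 5 genes the peak of the first DMSO library was the wider one. RPLP2 and RPS21 had H3K4me1 in both DMSO libraries alone while H3K27ac stayed in all 4 libraries at RPLP2 and in 3 at RPS21. RPS19 was the 1 gene with H3K4me1 in all 4 libraries, and its widest peaks were 1441 and 2900 bp with the inhibitor, against 16869 and 6323 bp with DMSO. The treatments did not overlap at RPS19, and over all 636 genes marked throughout 80.7% were narrower and 0.314% wider without overlap. On the centred log2 scale this was a difference of -1.37 ± 0.41 (SE) in peak width, with a limma adjusted p of 0.0641, which misses the threshold of 0.05. It was called narrower with windows of 1 kb, with genes marked in at least 3 libraries, with the replicate block, and without inhibitor replicate 2 or DMSO replicate 2. Of the 636 genes, 3.14% were called narrower and 0.786% wider. Without centring the log2 difference at RPS19 was -2.34 (limma adjusted p = 0.066), and 8.96% of the genes were called narrower.

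H3K4me3 was lost at 0 of the 76 ribosomal protein genes marked in both DMSO libraries, against 5.66% of 10799 protein-coding genes, and no gene gained it, against 0.0134%. Of the 78 genes, 76 had it in all 4 libraries. RPS9 had 1 peak of 763 bp in the first DMSO library alone, and in the other lists the nearest lay between 661748 and 662041 bp away, so it would count as lost without the second.

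H3K4me3 peaks at ribosomal protein genes were wider than those of all genes in every library, by their medians. The median of the widest peaks was 2311 and 2192 bp over 76 genes with the inhibitor, against 2850 and 2651 bp with DMSO. Over 9781 protein-coding genes it was 2031 and 1863 bp with the inhibitor, against 2456 and 2297 bp with DMSO. Such widths were not particular to ribosomal protein genes. Medians were 2647.5 and 2357.5 bp for further TOP and elongation genes with the inhibitor, against 3082 and 3011.5 bp with DMSO. For initiation factors they were 2552 and 2215 bp, against 3048.5 and 2793 bp. For assembly factors and regulators they were 2429 and 2163 bp, against 2897 and 2753 bp. Mitochondrial ribosomal proteins had narrower medians, 1980 and 1788 bp, against 2289 and 2233 bp, as did the paralogues. Among all peaks of each library, the median ribosomal protein gene stood at the 73.9th and 75.7th percentile of width with the inhibitor, against the 81.0th and 78.9th with DMSO. This rank takes the widest peak of each gene, which can raise it for any set of genes. It was not computed over all genes. Among the widest were RPL7, with 3909 and 3571 bp with the inhibitor, against 4186 and 4276 bp with DMSO. RPL41, the shortest ribosomal protein, had 3656 and 3548 bp with the inhibitor, against 4193 and 4293 bp with DMSO. RPL39, whose start carries the longest pyrimidine run, had 3182 and 2835 bp with the inhibitor, against 4583 and 3582 bp with DMSO. RPS12 had 3438 and 2841 bp with the inhibitor, against 3889 and 3576 bp with DMSO. The inhibitor peaks were narrower without overlap at all 4 of these genes, as they were at 82.5% of the 9781 protein-coding genes.

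Among the narrowest mean H3K4me3 widths were those of RPS19BP1, at 1573 and 1423 bp with the inhibitor, against 1828 and 1899 bp with DMSO. RPL29 had 1598 and 1597 bp with the inhibitor, against 2033 and 1875 bp with DMSO. RPL38 had 1902 and 1412 bp with the inhibitor, against 1996 and 1885 bp with DMSO. RPS20, of the small subunit, had 1796 and 1690 bp with the inhibitor, against 2050 and 1854 bp with DMSO. In RPL38 the first inhibitor library exceeded the second DMSO library. At the other 3 genes the inhibitor peaks were narrower without overlap, as at 82.5% of all genes.

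The widest H3K4me3 peak was narrower with the inhibitor, without overlap between treatments, at 66 of the 76 genes (86.8%), against 82.5% of all genes, and wider without overlap at 0, against 0.511%. The median log2 width, inhibitor over DMSO, was -0.27 over the 76 ribosomal protein genes (between -1.20 and -0.06) and -0.26 over all genes, and turned to 0.02 and 0.03 once each library was centred on its median. The share of narrower genes among ribosomal protein genes was therefore close to that of the genome.

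Relative to the median of each library, 2 of the 76 genes were called narrower by limma and 0 wider, against 1.9% and 0.276% of 9781 genes. RPL28, a large-subunit protein, had H3K4me3 peaks of 2134 and 1872 bp with the inhibitor, against 4607 and 4561 bp with DMSO. Most of the difference lay upstream of its start, where the peaks reached 622 and 565 bp with the inhibitor, against 2999 and 2859 bp. Downstream they reached 1511 and 1306 bp with the inhibitor, against 1607 and 1701 bp with DMSO. The centred log2 difference of RPL28 was -0.91 ± 0.07 (SE, limma adjusted p = 0.00222). RPL23A, a large-subunit protein at the exit tunnel where the signal recognition particle docks, had 2308 and 2404 bp with the inhibitor, against 4871 and 4829 bp with DMSO. Its centred log2 difference was -0.75 ± 0.08 (SE, limma adjusted p = 0.00675). In both genes the widest peak of either inhibitor library was narrower than that of either DMSO library, and both were called with and without centring.

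The windows of both genes meet those of neighbours, TMEM238 and UBE2S for RPL28 and RAB34 and TLCD1 for RPL23A, and 48 of the 79 members share window space with another gene. With peaks at 1 gene only, 45 ribosomal protein genes, neither of these among them, could be tested and 0 were called (0 narrower and 2 wider at an unadjusted p under 0.05). The 4 libraries each held 2 H3K4me3 peaks at RPL23A, of 4279 and 4269 bp in sum with the inhibitor, against 8575 and 8301 bp with DMSO. When the covered bases of the windows replaced the widest peak, RPL23A had a log2 difference of -0.23 and a limma adjusted p of 0.115, within a range between 0.000385 and 0.115 over its 10 alternatives. RPL26, not called otherwise, was called narrower in its place there, beside RPL28. RPL28 was called in all 11 of its alternatives, with limma adjusted p-values between 0.000385 and 0.00899. Without centring, 15 of the 76 ribosomal protein genes were called narrower and 0 wider, against 21.5% and 0.0409% of all genes.

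**Figure D4:**
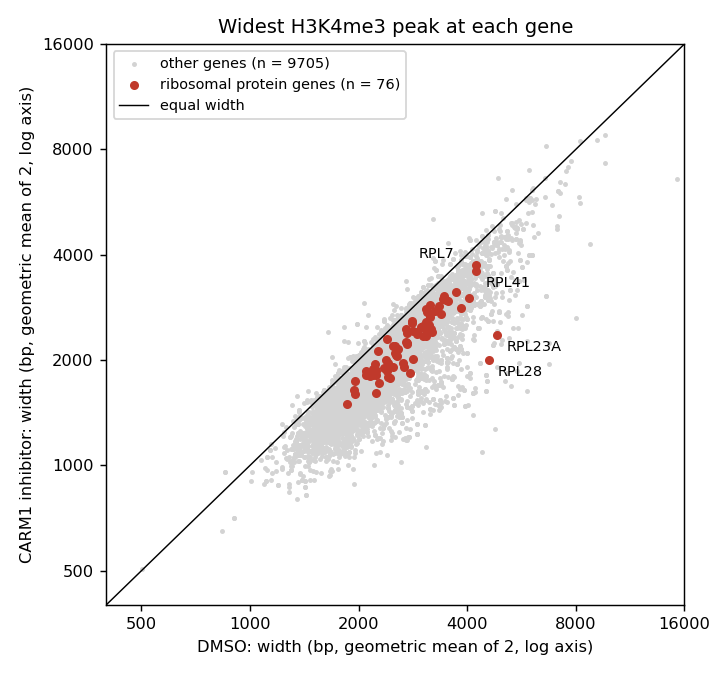
Width of the widest H3K4me3 peak at each gene with the inhibitor (vertical axis, bp, log scale) against DMSO (horizontal axis, bp, log scale), each as the geometric mean of 2 libraries, for 76 ribosomal protein genes (red) and 9705 other genes (grey). All 76 red points lie below the line of equal width, and RPL28 and RPL23A lie farthest from it.

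The H3K4me3 peaks reached farther into the gene than upstream. Over 51 genes with a single start inside a peak in all 4 libraries, the median reach downstream was 1411 and 1324 bp with the inhibitor, against 1707 and 1540 bp with DMSO. The median reach upstream was 865 and 797 bp with the inhibitor, against 1101 and 1042 bp with DMSO. The reach downstream was the longer one at 45 of 51 and 46 of 51 genes with the inhibitor, against 45 of 52 and 44 of 51 with DMSO. Over all genes it was the longer one at 4371 of 5928 and 4250 of 5737 genes with the inhibitor, against 4696 of 6403 and 4545 of 6255 with DMSO. With the inhibitor the reach was shorter on both sides, by a median change of -250.5 bp downstream (shorter at 51 of 51 genes) and -194 bp upstream (49 of 51). Over 5717 protein-coding genes the median changes were -185.5 bp downstream (shorter at 5344 genes) and -178.5 bp upstream (shorter at 5390).

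Other genes of translation were counted in the same way. Over all protein-coding genes, the lost shares were 28.0% for H3K27ac, 55.4% for H3K4me1 and 5.66% for H3K4me3, and 0.454% gained H3K27ac. Among 22 further TOP and elongation genes, H3K27ac was lost at 3 of 6. EEF1B2, a subunit of the exchange factor of elongation factor eEF1, had no peak with the inhibitor, against 846 and 805 bp with DMSO. VIM, the intermediate filament vimentin and a TOP mRNA, had none with the inhibitor, against 980 and 946 bp with DMSO. FAU, whose product is cleaved into the ribosomal protein RPS30 and a ubiquitin-like protein, had none with the inhibitor, against 2040 and 1751 bp with DMSO. In the same list EIF3E, an initiation factor subunit, gained H3K27ac, with 1146 and 1386 bp with the inhibitor and no DMSO peak. The list lost H3K4me1 at 1 of 2 genes and H3K4me3 at 0 of 20, and 11 of its 13 genes with a single start began with a TOP run (84.6%). Its members were chosen in part as TOP mRNAs, so this share follows in part from the choice.

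Translation initiation factors lost H3K27ac at 1 of 12 genes, EIF5A (none with the inhibitor, 1566 and 1100 bp with DMSO), H3K4me1 at 4 of 4 and H3K4me3 at 0 of 28. Mitochondrial ribosomal proteins build the separate ribosome of the organelle and rarely start with a TOP run (4 of 58, 6.90%). They lost H3K27ac at 4 of 13 genes (30.8%, against 28.0% of all genes), H3K4me1 at 10 of 11 and H3K4me3 at 0 of 73. None of the 4 genes had an H3K27ac peak with the inhibitor. The DMSO peaks were 1638 and 1320 bp at MRPL13, 1719 and 1298 bp at MRPL57, 1453 and 1726 bp at MRPL27, and 6954 and 1751 bp at MRPL49, whose end lies beside that of FAU. MRPL49 and FAU had the same H3K27ac width in the second DMSO library and the same H3K4me3 widths in every library. The same peaks can thus be counted in both lists. Ribosome assembly factors and regulators of ribosomal protein synthesis lost H3K27ac at 1 of 8 genes, NOP56, a nucleolar core protein of the particles that guide rRNA methylation (none with the inhibitor, 2436 and 1363 bp with DMSO), H3K4me1 at 5 of 6 and H3K4me3 at 0 of 27. The list of paralogues, which also holds RPL36AL, lost H3K27ac at 1 of 2, RPL39L (none with the inhibitor, 1306 and 1349 bp with DMSO), H3K4me1 at 1 of 1 and H3K4me3 at 0 of 6. EIF6 stands in both the initiation and the assembly list. No difference between these lists was tested.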

How the data were processed

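The peak lists were deposited by the authors, 1 per ChIP library, with 3 columns (chromosome, start, end) and no other value. The submitters' processing notes name the aligner Bowtie 1.1.2, the peak caller MACS 1.4.2 and hg38. Read filters, the peak threshold and how the inputs entered were not given in the sources used here. Since each library was called by itself, its peaks can depend on its depth, which is unknown.

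Gene ends came from the RefSeq table of GRCh38.p14, and 1353 genes in stretches of 1 Mb or more without any peak were left out of the peak counts. The counts of start-site and promoter sequences kept such genes where they had a single listed start. Start sites came from the RefSeq promoter table, which lists a start for 63 of the 79 members. Widths of the widest peak (log2 bp) were tested in limma 3.58.1 (R 4.3.3; trended empirical Bayes, Benjamini-Hochberg over all genes tested, threshold 0.05). Python 3.11.15, numpy 2.4.6, pandas 2.3.3 and matplotlib 3.10.9 did the rest. Both steps were tested on simulated data.

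Named genes were those lost or gained for H3K27ac or H3K4me3, kept for H3K27ac in all 4 libraries, called by limma, with the widest or narrowest H3K4me3, with the widest lost H3K4me1, or with H3K4me3 missing in a list, and 13 well-known members. A few members enter the counts and are not reported here. Members and lists were chosen with earlier results of these data known. P-values measure the spread between libraries, which may be technical.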

Additional observations from a re-analysis of the deposited data

How the results depend on the processing

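Gained counts were 0 for the 3 marks under every alternative run. For H3K27ac the lost count of 9 became 1 in lists of equal length and 5 with peaks at 1 gene only, and lay between 9 and 44 when single libraries were left out. Each of the 9 genes stayed lost in 10 or 11 of 12 alternatives. By the definition of lost, leaving out a single library, or RPS19BP1 and RPL36AL, could not remove any of them. In lists of equal length RPS25 alone stayed lost. Its peak of 1747 bp barely passed the cut of the first DMSO list, at 1745 bp. The other lost genes had at most 1669 bp in that list and fell under the cut. For H3K4me1 the lost count of 11 became 1 in lists of equal length, 6 with peaks at 1 gene only and 7 around the start alone, and lay between 11 and 49 when single libraries were left out. For H3K4me3 it lay between 0 and 1. The high values arose without DMSO replicate 2, which leaves the first DMSO library as the sole DMSO library. Width calls for H3K4me1 went to 1 (RPS19) with windows of 1 kb, with genes marked in at least 3 libraries and with the replicate block, and lay between 0 and 1 when single libraries were left out. Width calls for H3K4me3 became 15 without centring, 0 with peaks at 1 gene only and 1 around the start alone, and lay between 2 and 3 when single libraries were left out. RPL36, not called (limma adjusted p = 0.118), was called without centring and without inhibitor replicate 1 (limma adjusted p between 0.0166 and 0.431 over 11 alternatives). The causes were not tested.

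After each library was centred on its median, the width deviations of same-numbered libraries correlated at 0.03, 0.01 and 0.05 for H3K27ac, H3K4me1 and H3K4me3. Centring removes shifts of a whole library, so these values cannot show whether same-numbered libraries share one. The list of replicate 1 had a wider median peak than that of replicate 2 for each mark and treatment. The replicate block called 0, 1 and 2 ribosomal protein genes. Over all genes it called 29 narrower and 28 wider for H3K27ac, 40 and 12 for H3K4me1 and 229 and 34 for H3K4me3, against 1 and 0, 20 and 5, and 186 and 27 without it. Without scores in the lists, a threshold on score could not be run and the widest peaks were kept instead. Leaving out RPS19BP1 and RPL36AL was added after the data were seen. With 2 libraries per group and unknown depth, absence of a peak is not absence of the mark.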
